A study of Mus musculus with 69 samples.

Results

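The canonical Wnt pathway was described here through 10 genes, chosen by name, among the 16263 genes of the mRNA-seq count table. They were the receptor gene Fzd2, the destruction complex genes Axin1, Axin2, Apc and Gsk3b, the β-catenin gene Ctnnb1, the transcription factor genes Tcf7, Tcf7l1 and Tcf7l2, and the target gene Sp5. All 10 were in the table, and all 10 passed the filter on low counts, which 14061 genes passed.

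The study asked what becomes of transcription and chromatin in mouse embryonic stem cells (ESCs) whose histone variant H3.3 carries arginine in place of lysine 27 (H3.3K27R). The cells were of the J1 line, derived from the inner cell mass of a 129S4/SvJae blastocyst and grown on feeder cells, then without feeders before harvest. WT cells carried the unedited genes. The mutants Mut18 and Mut43 were each 1 clone, edited by CRISPR-Cas9 at both alleles of both H3.3 genes, H3f3a and H3f3b, so that the edit and any history the clones share cannot be told apart. Each line had 2 biological replicates of mRNA-seq, with 14992756 to 15143998 counts per library, and 2 of ATAC-seq, which marks accessible chromatin.

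In the canonical Wnt pathway, cytoplasmic β-catenin is held low by a destruction complex, in which Axin and Apc form the scaffold and Gsk3 and casein kinase 1 phosphorylate β-catenin for degradation. Wnt ligands bind Frizzled receptors and Lrp5 or Lrp6 and disable that complex, and β-catenin then enters the nucleus and binds TCF/LEF factors at their target genes. In mouse ESCs Tcf7l1 acts mainly as a repressor, also of pluripotency genes, while Axin2 and Sp5 are widely used as readouts of the pathway and both feed back to dampen it.

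TCF/LEF factors recognise the letters CTTTGAT and CTTTGAA, so these were searched on both strands in the promoters of the members, taken as 250 bases before to 50 bases after the gene start in RefSeq on GRCm38.p6. The table held 10 promoters of 7 members and no entry for Fzd2, Axin1 and Apc. Only the Sp5 promoter held a match, and 8.65% of the 32851 promoters in the table held one (3.73% CTTTGAT and 5.14% CTTTGAA). The 250 bases before the Sp5 start, chr2:70474673-70474922 on the plus strand, are shown because Sp5 was the member that changed most, with the match in capitals.
Sp5 upstream: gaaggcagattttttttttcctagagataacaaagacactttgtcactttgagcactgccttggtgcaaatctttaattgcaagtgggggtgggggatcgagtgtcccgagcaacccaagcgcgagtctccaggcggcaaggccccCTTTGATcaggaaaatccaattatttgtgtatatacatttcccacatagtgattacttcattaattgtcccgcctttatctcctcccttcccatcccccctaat
Inside the transcribed part of the gene, 3 more matches lay in the untranslated part of the Sp5 exon, at 50, 89 and 114 bases from the gene start. They are given on the plus strand as 27 bases each, with the letters of the motif or of its reverse complement in capitals, at chr2:70474963-70474989, chr2:70475002-70475028 and chr2:70475027-70475053.
Sp5 site at 50: gctttgtggaTTCAAAGgatttgcttt
Sp5 site at 89: agccgctattCTTTGATgattgggtag
Sp5 site at 114: agcggcaaacTTCAAAGccataaatct
The Axin2 promoter window held no match, but 1 lay 78 bases from the Axin2 start, in the untranslated part of an exon at chr11:108920417-108920443, plus strand.
Axin2 site at 78: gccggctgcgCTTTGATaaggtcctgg
Sites outside the promoter windows are shown for Sp5 and Axin2 only. A start region of Tcf7l1 also held 1 match, in the 300 bases around its ATAC-seq peak summit (chr6:72789440-72789739). A match is a description of the letters, and no binding of a TCF factor was measured.

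Of the 10 members, 4 were lower in the mutants (Fzd2, Gsk3b, Tcf7l2 and Sp5), 2 were higher (Axin1 and Tcf7) and 4 passed the test in neither direction (Axin2, Apc, Ctnnb1 and Tcf7l1). Only Sp5 changed more than 2-fold over both clones. These counts were read against a wide background: edgeR's quasi-likelihood test, with p-values adjusted by Benjamini-Hochberg and a threshold of 0.05, called 24.5% of all tested genes lower and 23.5% higher. A drop beyond 2-fold was called for 5.65% of all genes. The test compared 4 mutant libraries, which came from 2 clones, with 2 WT libraries, and the single clone comparisons share those WT libraries.

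**Figure D1:**
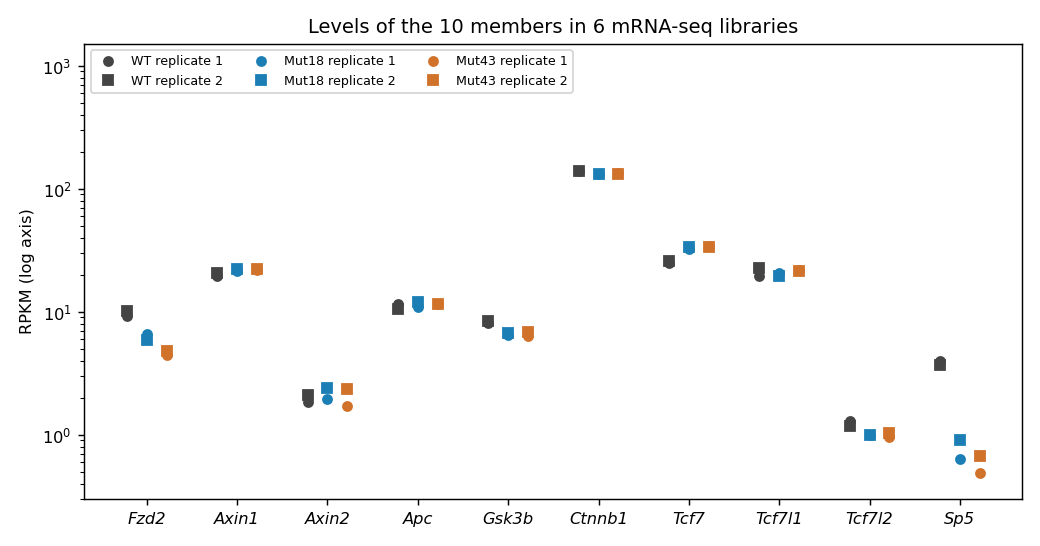
Level of each member in each of the 6 mRNA-seq libraries, as RPKM, counts scaled to exon length and library size (log axis). Circles are replicate 1 and squares replicate 2 of WT (grey), Mut18 (blue) and Mut43 (orange). Ctnnb1 sat far above the other members at 131 to 138 RPKM, and Sp5 fell from 3.66 and 3.98 in WT to between 0.483 and 0.896 in the mutants.

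The members spanned a wide range of levels. In WT cells, per kilobase of exon, Ctnnb1 was highest at 138 RPKM ± 0.104 (SD, n = 2). Among the transcription factor genes Tcf7 had 25.2 ± 0.716 RPKM, Tcf7l1 21 ± 2.18 and Tcf7l2 1.23 ± 0.0752. Axin1, at 20.1 ± 0.894 RPKM, could not be separated from Tcf7l1, since their WT libraries overlapped at 19.5 to 20.7 and 19.5 to 22.6.
Apc (11 ± 0.688 RPKM), Fzd2 (9.70 ± 0.729) and Gsk3b (8.19 ± 0.256) followed, and the WT libraries of these 3 genes did not overlap, although the highest of Fzd2 at 10.2 lay close to the lowest of Apc at 10.5. The readouts of the pathway were low, with Sp5 at 3.82 ± 0.230 and Axin2 at 1.96 ± 0.172 RPKM. In the mutants Sp5 was the lowest of the 10 members, at 0.483 to 0.896 RPKM, below Tcf7l2 at 0.955 to 1.04.

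Fzd2, which encodes a Frizzled receptor for Wnt ligands, lies on chromosome 11 (GRCm38, 102604396 to 102608058, plus strand). It had 507 and 564 normalized counts in the WT libraries, 360 and 327 in those of Mut18, and 245 and 264 in those of Mut43. The 3 lines did not overlap, with WT highest and Mut43 lowest. The log2 fold change of the mutants against WT was -0.84 (SE 0.11, adjusted p = 1.59e-06 in edgeR). Against WT it was -0.64 in Mut18 and -1.07 in Mut43. The difference between the clones was itself past the threshold, at 0.43 (SE 0.096, adjusted p = 0.043 in edgeR), in a comparison that called 0.263% of genes higher in Mut18, but it was lost when any 1 of the 4 mutant libraries was left out, with differences of 0.36 to 0.50 and adjusted p of 0.25 to 0.798. Each of those fits leaves 1 clone with a single library, which is assumed to vary like the other lines.
In these bulk libraries fewer cells of a type and less RNA per cell cannot be told apart.

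Of the destruction complex genes, Gsk3b, the kinase that marks β-catenin for degradation, was lower. It lies on chromosome 16 (38089001 to 38246084, plus strand) and had 1185 and 1239 normalized counts in the WT libraries, 961 and 989 in those of Mut18, and 946 and 1011 in those of Mut43. Every mutant library was below both WT libraries, and both clones were alike at a log2 fold change of -0.31 (over both clones SE 0.048, adjusted p = 1.93e-05 in edgeR).
The scaffold gene Axin1 (chromosome 17, 26138688 to 26195811, plus strand) had 1122 and 1195 normalized counts in the WT libraries, 1237 and 1274 in those of Mut18, and 1254 and 1272 in those of Mut43. All mutant libraries were above WT, by a log2 fold change of 0.12 (SE 0.046, adjusted p = 0.036 in edgeR). This call was lost without WT replicate 1, where the log2 fold change was 0.08 (adjusted p = 0.348), without Mut18 replicate 2 (adjusted p = 0.0711) or Mut43 replicate 2 (adjusted p = 0.0625), and also with upper quartile scaling (0.10, adjusted p = 0.0738) and in the DESeq2 Wald test (0.13, adjusted p = 0.0981). In neither clone alone did Axin1 pass.
Apc (chromosome 18, 34220924 to 34322552, plus strand), the tumour suppressor that binds β-catenin in the complex, had 2796 and 2560 normalized counts in the WT libraries, 2640 and 2917 in those of Mut18, and 2826 and 2819 in those of Mut43. The lines overlapped, and the log2 fold change was 0.06 (95% interval -0.03 to 0.16, adjusted p = 0.273 in edgeR).

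Axin2, the feedback scaffold that β-catenin itself induces, did not pass the test. It lies on chromosome 11 (108920349 to 108950783, plus strand) and had 152 and 173 normalized counts in the WT libraries, 160 and 197 in those of Mut18, and 142 and 197 in those of Mut43. Replicate 2 of each clone was above both WT libraries, while replicate 1 lay between them in Mut18 and below them in Mut43, so that the lines overlapped. The log2 fold change was 0.10 (SE 0.13, adjusted p = 0.533 in edgeR), and its 95% interval, -0.16 to 0.36, allows neither a 2-fold rise nor a 2-fold fall.
Exons of an antisense gene, Gm11670, overlap those of Axin2, and whether the counting used strand is not given in the sources used here. Exons of Ulk4 overlap Ctnnb1 and those of Gm15401 overlap Tcf7l1 in the same way.

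The β-catenin gene Ctnnb1 (chromosome 9, 120929216 to 120960507, plus strand) had 10790 and 10778 normalized counts in the WT libraries, 10358 and 10344 in those of Mut18, and 10561 and 10211 in those of Mut43. Every mutant library was below both WT libraries, but only slightly. The log2 fold change was -0.06 (95% interval -0.13 to 0.02, adjusted p = 0.19 in edgeR). mRNA levels say nothing of β-catenin protein, whose stability the pathway controls.
In all, 7 members had mutant libraries that did not overlap WT, 5 below (Fzd2, Gsk3b, Ctnnb1, Tcf7l2 and Sp5) and 2 above (Axin1 and Tcf7), where 59.8% of all tested genes did not overlap, 30.4% below and 29.4% above.

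The 3 TCF genes differed. Tcf7 (chromosome 11, 52252371 to 52283014, minus strand) encodes a factor that activates with β-catenin, and its short forms, which lack the β-catenin binding part, repress. It had 976 and 1016 normalized counts in the WT libraries, 1270 and 1317 in those of Mut18, and 1339 and 1331 in those of Mut43. All mutant libraries were above WT, with a log2 fold change of 0.40 (SE 0.047, adjusted p = 5.75e-07 in edgeR).
Tcf7l1, the main TCF repressor of ESCs (chromosome 6, 72626378 to 72789254, minus strand), had 1151 and 1333 normalized counts in the WT libraries, 1219 and 1153 in those of Mut18, and 1276 and 1261 in those of Mut43. All mutant libraries lay between the lower and the higher WT library, and the log2 fold change was -0.02 (95% interval -0.13 to 0.10, adjusted p = 0.824 in edgeR).
Tcf7l2 (chromosome 19, 55741820 to 55933654, plus strand), a factor of the same family, had 170 and 156 normalized counts in the WT libraries, 132 and 133 in those of Mut18, and 126 and 137 in those of Mut43. It was lower in every mutant library, by a log2 fold change of -0.30 (SE 0.11, adjusted p = 0.0231 in edgeR). The call was lost without WT replicate 1 (-0.24, adjusted p = 0.213) and without Mut43 replicate 1 (-0.28, adjusted p = 0.0582), and in the DESeq2 Wald test (-0.30, adjusted p = 0.141).

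Sp5, a zinc finger factor of the Sp family, is a direct target of β-catenin that in turn binds and dampens other Wnt targets. It lies on chromosome 2 (70474923 to 70477729, plus strand). It had 126 and 116 normalized counts in the WT libraries, 20 and 28.3 in those of Mut18, and 15.3 and 21.3 in those of Mut43. The lines were far apart, the highest mutant library being Mut18 replicate 2 at 28.3 and the lowest WT library replicate 2 at 116. Its level fell 5.66-fold, a log2 fold change of -2.50 (SE 0.19, 95% interval -2.90 to -2.11, adjusted p = 1.38e-09 in edgeR). It was -2.32 in Mut18 and -2.72 in Mut43, and the difference between them, 0.40 with a 95% interval of -0.22 to 1.02, did not pass the test (adjusted p = 0.803 in edgeR).
Sp5 and Axin2, both readouts of the pathway, thus had log2 fold changes whose 95% intervals did not overlap.

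**Figure D2:**
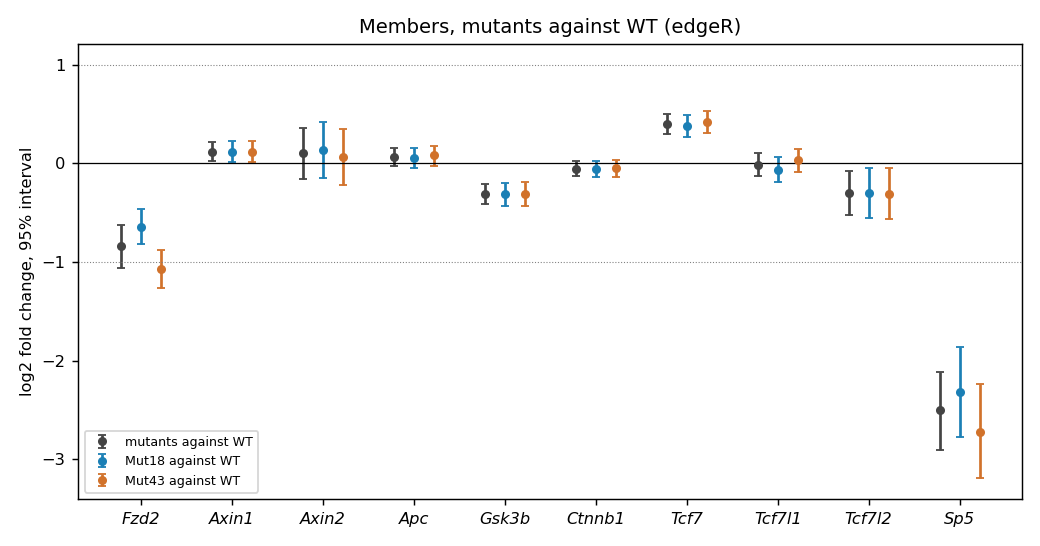
log2 fold change of each member with its 95% interval, for both clones together (grey), Mut18 (blue) and Mut43 (orange) against the same 2 WT libraries, from edgeR. Dotted lines mark a 2-fold change. Sp5 lay at -2.50 over both clones, Fzd2 at -0.84 with Mut43 below Mut18, and Tcf7 was the only member above 0.30.

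Within each clone, the counts of calls were similar. Against WT, Mut18 had 3 members lower (Fzd2, Gsk3b and Sp5) and 1 higher (Tcf7), where 21% and 20.3% of all genes were called lower and higher. Mut43 had 4 lower (also Tcf7l2) and 1 higher (Tcf7), where 23.9% and 22.9% were called. In Mut43 Fzd2 passed 2-fold besides Sp5, as did 6.81% of all genes on the lower side.

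Of the members, 3 lie on chromosome 11 (Fzd2, Axin2 and Tcf7), a chromosome whose genes as a whole were higher in both mutant clones. Over its 933 tested genes whose mean reached 50 normalized counts the median log2 fold change was 0.39, against -0.01 on the other autosomes, and 0.38 in each clone. The median within 10 Mb was 0.40 around Fzd2, 0.38 around Axin2 and 0.34 around Tcf7.
Taken relative to the chromosome median, Tcf7 was at 0.01 (SE 0.047, adjusted p = 0.836 in edgeR), near the middle of its chromosome, with 53.1% of those genes below it. Fzd2 was at -1.22 (SE 0.11, adjusted p = 1.12e-08 in edgeR), which 0.857% of the genes on the chromosome fell below. Axin2 was at -0.28 (SE 0.13, adjusted p = 0.074 in edgeR), and 16.7% of those genes were below it. The relative Axin2 value passed the threshold without Mut18 replicate 2 (-0.35, adjusted p = 0.0349) or Mut43 replicate 2 (-0.34, adjusted p = 0.0385). On this scale 24.4% of the 1182 tested genes of the chromosome were called lower and 20.2% higher.

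**Figure D3:**
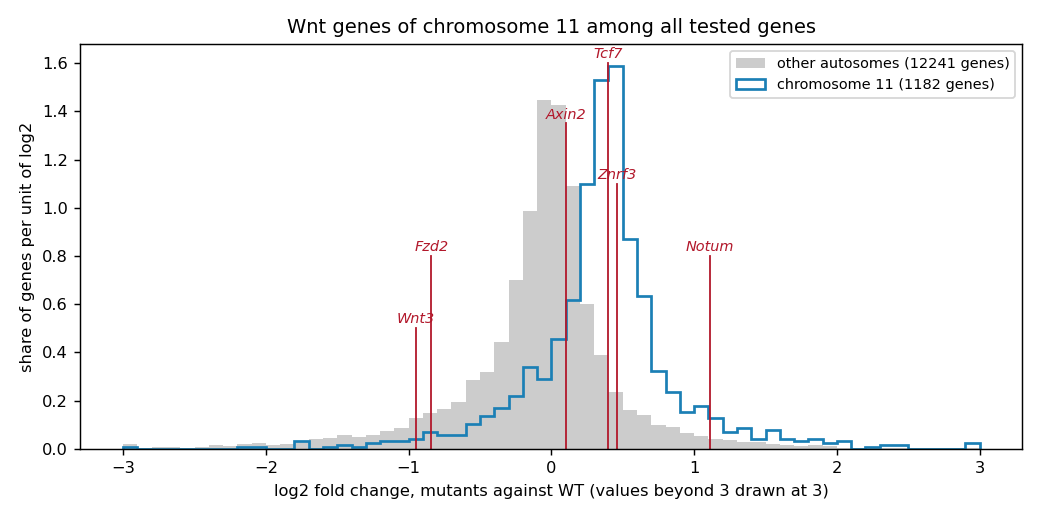
Distribution of the log2 fold change of the mutants against WT for 1182 tested genes of chromosome 11 (blue outline) and 12241 of the other autosomes (grey), as the share of genes per unit of log2. Red lines mark the members Fzd2, Axin2 and Tcf7 and the listed Wnt genes Wnt3, Znrf3 and Notum at their values, and their heights carry no value. Tcf7 at 0.40 sat in the middle of its chromosome and Fzd2 at -0.84 in the lower tail.

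To place the members in the wider pathway, 98 further Wnt genes were grouped by role, of which 81 were tested. Of these, 27 were lower, 20 higher and 34 neither, with a median log2 fold change of -0.06. Over all tested genes 24.5% were called lower and 23.5% higher, and the median was 0. Beyond 2-fold, 8 were lower and 3 higher, where 5.65% and 3.28% of all genes were.
Among the ligand genes, 4 of 9 tested were lower, 1 higher and 4 neither, with a median of -0.46. Wnt8a had 44.9 and 60.8 normalized counts in WT and 18.3 to 30.5 in the mutants, a log2 fold change of -1.10. Wnt4 had 53.7 and 63.7 in WT and 15.3 to 41.1 in the mutants, a log2 fold change of -1.09. The 1 that was higher, Wnt3a, named after its value was seen, had few counts, 3.91 and 2.94 in WT and 11.1 to 16.2 in the mutants, and a log2 fold change of 1.98 (adjusted p = 0.00163 in edgeR).
Among 20 tested genes for ligand secretion and surface receptors, 6 were lower and 6 higher, with a median of -0.20. Wls, which carries Wnt proteins to the cell surface, had 641 and 562 normalized counts in the WT libraries, 342 and 314 in Mut18, and 241 in both Mut43 libraries, a log2 fold change of -1.08 (adjusted p = 4.98e-08 in edgeR). Fzd4, another Frizzled receptor, had 116 and 53.9 in WT and 32.6 to 48.6 in the mutants, a log2 fold change of -1.02. The WT libraries differed for Fzd4 by more than its lower WT library differed from the mutants.
Of the 9 Frizzled genes tested besides Fzd2, a group formed after their values were seen, 5 were lower, 1 higher and 3 neither. Lower were Fzd1 (-1.5), Fzd3 (-0.32), Fzd4, Fzd6 (-0.53) and Fzd7 (-0.49), and Fzd5 was higher at 0.49.

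Of the secreted inhibitors, 3 of 7 were higher and 1 lower, with a median of 0.26. Beside the counts of this and the next 2 lists, 23.5% of all tested genes were called higher and 24.5% lower. Notum, an enzyme that removes the lipid from Wnt proteins and is itself a target, had 366 and 365 normalized counts in WT and 712 to 871 in the mutants, a log2 fold change of 1.11 (adjusted p = 4.01e-10 in edgeR). Sfrp1, which binds Wnt ligands, had 799 and 725 in WT and 852 to 898 in the mutants, a log2 fold change of 0.19. Sfrp2, the 1 called lower, had 222 and 278 in WT and 138 to 163 in the mutants. Its log2 fold change was -0.74, and it was named after its value was seen.
The cytoplasmic genes beyond the members changed little. Of 16, 5 were higher and 2 lower, none beyond 2-fold, and 4 of the 5 lie on chromosome 11. The most abundant were Ppp2ca, a phosphatase subunit, at 0.27, and Tnks2, which marks Axin for degradation, at -0.02 (adjusted p = 0.80 in edgeR).
Of 16 nuclear cofactor genes 5 were lower and 3 higher, again none beyond 2-fold. Cdh1, the E-cadherin gene, whose protein holds β-catenin at the membrane, was grouped here and had 9315 and 9129 normalized counts in WT and 7211 to 7511 in the mutants, a log2 fold change of -0.33. Hdac1, a histone deacetylase that works with TCF repressors, was at -0.05 (adjusted p = 0.298 in edgeR). Lef1, the other gene of the TCF/LEF family, named after its value was seen, was lower at -0.32 (adjusted p = 0.00148 in edgeR).

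Of the Wnt lists, that of known targets and feedback genes had the most members called lower. Of 18 tested, 10 were lower, 5 higher and 3 neither, with a median log2 fold change of -0.38, where 24.5% of all genes were called lower. Of these 18, Notum, Lef1, Lgr5, Rnf43 and Znrf3 were also counted in the lists above. T, the Brachyury gene of early mesoderm, had 247 and 243 normalized counts in the WT libraries, 50.1 and 46.5 in those of Mut18, and 27.5 and 33.5 in those of Mut43, a log2 fold change of -2.63 (adjusted p = 2.93e-11 in edgeR). Nkd2, a feedback inhibitor that binds Dishevelled, had 73.2 and 73.5 in WT and 22.3 to 35.6 in the mutants, a log2 fold change of -1.45. Sp8, a paralog of Sp5, had 58.6 and 70.6 in WT and 21.4 to 44.1 in the mutants, a log2 fold change of -1.02.
The targets did not move one way, since Notum and also Tbx3 (0.99) and Znrf3 (0.46), the latter pair named after their values were seen, were higher.
All 5 pluripotency genes listed as repressed by Tcf7l1 were higher, where 23.5% of all genes were called higher, with a median of 0.29 and none beyond 2-fold. Among them Esrrb had 3901 and 3944 normalized counts in WT and 5083 to 5348 in the mutants, a log2 fold change of 0.41. Nanog had 4583 and 4618 in WT and 5200 to 5318 in the mutants, a log2 fold change of 0.20. Esrrb and Nanog are also counted among the ESC markers below.

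**Figure D4:**
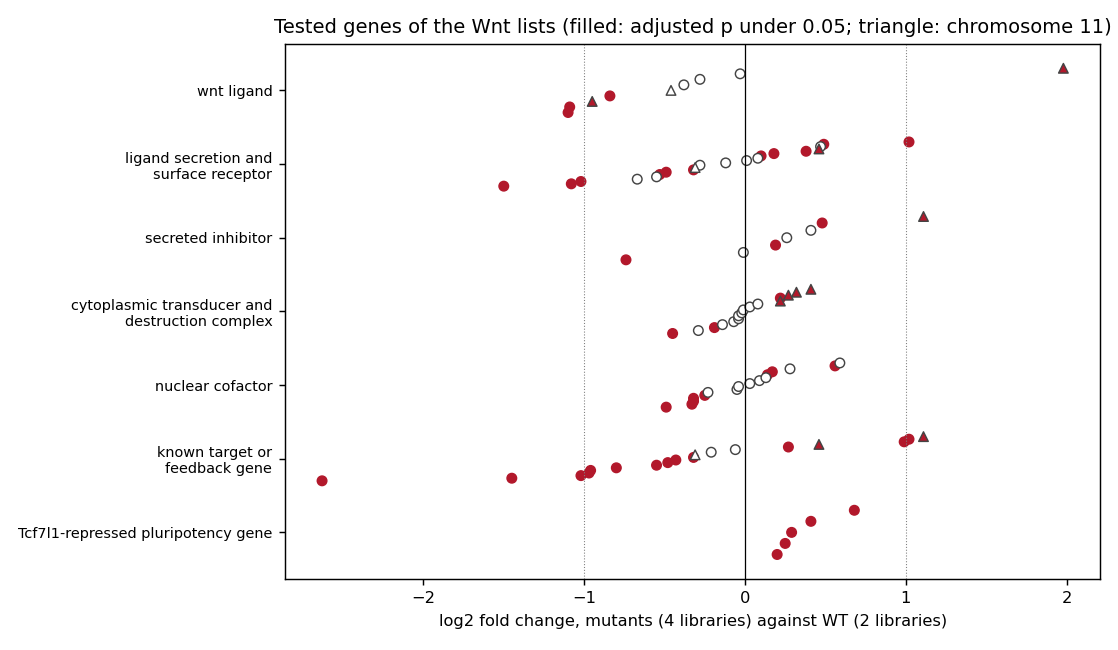
log2 fold change of the mutants against WT for each tested gene of the Wnt lists, 1 row per list and 1 mark per gene, ordered within a row by value. Filled marks passed the adjusted p threshold of 0.05, triangles are genes of chromosome 11, and dotted lines mark a 2-fold change. Marks of the target row lie mostly below 0, with T at -2.63 and Notum at 1.11.

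Genes of chromosome 11 bear on these lists. Of the 10 listed Wnt genes on that chromosome, 7 were called higher and 1 lower, where 23.5% and 24.5% of the genes of all chromosomes were. The share for chromosome 11 alone was not taken. Relative to the chromosome median 2 were higher and 4 lower, where 20.2% and 24.4% of its 1182 tested genes were. On that scale Notum was still higher at 0.72 (SE 0.077, adjusted p = 2.18e-07 in edgeR), and Znrf3 was at 0.07 (adjusted p = 0.403). The ligand gene Wnt3 went from -0.95 to -1.34 (adjusted p = 1.8e-06 in edgeR). These genes were taken on this scale after their values had been seen.

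Markers of other cells moved with the same contrast. Of 11 tested fibroblast markers, listed because the cells had been grown on feeders, 9 were lower and none higher, where 24.5% of all genes were called lower and 23.5% higher, and their median log2 fold change was -0.69. Their summed normalized counts were 9069 and 11002 in WT and 5471 to 7254 in the mutants. Col3a1 had 843 and 257 in the WT libraries and 98.4 to 149 in the mutants, and Postn 288 and 111 against 38.0 to 52.6. Fbn1 was at -1.27 and Col5a1 at -1.07. Lum was too low to be tested.
WT replicate 1 was the higher WT library for Col3a1, Postn and Fbn1. Without WT replicate 1 the log2 fold change was -2.44 for Sp5 and -0.91 for Fzd2. The summed fibroblast markers of WT replicate 2, at 9069, were still above every mutant library, so the marker difference stays in that fit.
Of 13 markers of differentiating lineages, 6 were lower and 2 higher, against 24.5% and 23.5% of all genes. T, Cdx2 and Mixl1 are also in the list of known targets, and T and Cdx2 count among the lower genes of both lists. Fgf5 had 279 and 292 normalized counts in WT and 41.7 to 52.6 in the mutants (-2.58), Nes was at -1.51 and Sox1 at -1.10. Called higher were Gata4 (0.50) and Pax6 (0.27), and Otx2 was called in neither direction (-0.06, adjusted p = 0.495 in edgeR). Gata4, Pax6 and Otx2 were named after their values were seen. The ESC markers were high in all libraries, and of 11 tested 7 were higher and 2 lower, against 23.5% and 24.5% of all genes. The most abundant were Tdgf1, at 13259 to 14551 normalized counts in all 6 libraries (0.10), and Zfp42, at 7710 and 8154 in WT and 12262 to 13930 in the mutants (0.72). Pou5f1, 1 of the 2 that were lower and named after its value was seen, had 12092 and 12814 in WT and 10006 to 10618 in the mutants (-0.27). The part of these markers in the changes of the members was not tested.

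The genes whose pattern over the 6 libraries was most like that of a member were found by the root mean square difference of centred log2 values among 11075 genes. For Axin2 these were Arhgap27, 2810408I11Rik and Trappc2l (0.077 to 0.087), and for Tcf7l1 Dhps, Ccdc85c and Rplp2 (0.021 to 0.025). None of these is in the Wnt lists. The wider pathway held only 81 tested genes, so this absence would be likely for any gene and says nothing about the pathway.

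In the ATAC-seq peak lists, 142 regions lay within 50 kb of a member, of which 77, or 54.2% (95% Clopper-Pearson interval 45.7 to 62.6, counting error only), had a peak in all 6 libraries. Over all 89596 regions this share was 54.7%. WT replicate 1 had the longest list, with 78536 peaks against 63588 to 69811 in the others.
At the gene starts, taken within 1000 bp of an annotated coding start, 11 of 16 regions had a peak in all 6 libraries (68.8%), against 76.0% of 18545 such regions over all genes. Axin1 and Gsk3b each had 1 start region, and it had a peak in all 6.
The start region of Sp5 (chr2:70475051-70475184), which begins just past the last match of the motif shown above, was listed in Mut18 replicate 1 only, at a fold enrichment of 3.80 that 1.7% of the peaks in that library fell below. It was thus in neither WT library, where the mRNA was highest. The nearest region with a peak in all 6 libraries was centred at -2862 bp, with fold enrichments of 3.93 to 4.29.
The Axin2 start region (chr11:108920182-108920886), which holds the site shown above, had a peak in all 6 libraries with fold enrichments of 5.02 to 6.07. The Tcf7 start region was listed in all libraries except WT replicate 2, at fold enrichments of 3.87 to 4.56.

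Few regions separated the lines, and their number depended on single libraries. With a peak in all 4 mutant libraries and no WT library there were 3, all near Fzd2, where 0.733% of all regions had this pattern. These 3 lie on chromosome 11, and the share for regions of that chromosome alone was not taken. The closest lay 606 bp upstream of the Fzd2 start (chr11:102603579-102603790), among the weakest peaks of each mutant library, with 1.2 to 2.5% of peaks below it. The other two lay 36324 and 35965 bp from the start (chr11:102567779-102568072 and chr11:102568222-102568431). The region over the Fzd2 start itself had a peak in all 6 libraries, with fold enrichments of 4.77 and 5.35 in WT and 5.35 to 5.95 in the mutants.
There were 4 regions listed in both WT libraries but in none of the mutants, 2 near Axin1, 1 near Fzd2 (chr11:102588092-102588262) and 1 near Apc, where 3.25% of all regions had this pattern. No region near Sp5, Axin2 or a TCF gene was of either kind. Without WT replicate 1 the regions of mutants alone were 10 and those of WT alone 9, and without WT replicate 2 those of WT alone were 13. With only peaks of a −log10 q of at least 20, none of the regions of mutants alone was left.
Of the windows of 300 bases on the peak summits near members, 12 of 142 (8.45%) held CTTTGAT or CTTTGAA, against 8.3% over all regions.

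**Figure D5:**
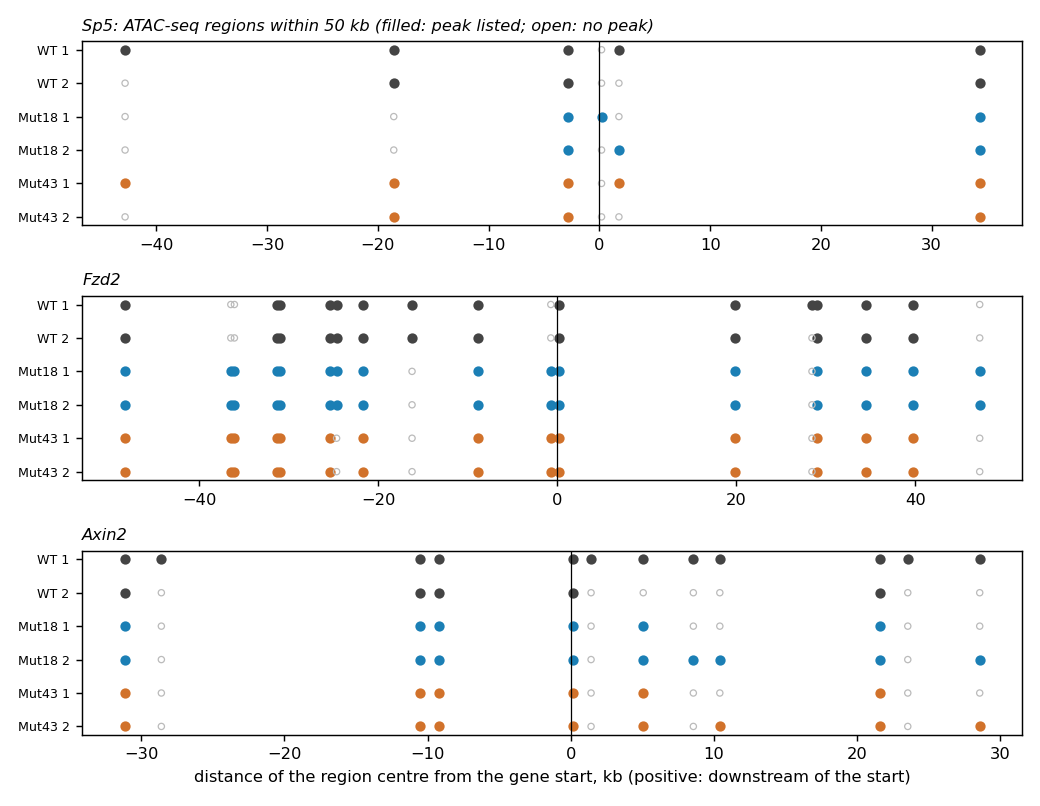
ATAC-seq regions within 50 kb of Sp5, Fzd2 and Axin2, placed by the distance of their centre from the gene start in kb (positive is downstream of the start). Each row is a library, a filled mark is a listed peak (grey WT, blue Mut18, orange Mut43) and an open mark a region with no listed peak there. Sp5 had 2 of 6 regions listed in all libraries, Axin2 5 of 12 and Fzd2 11 of 18.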

How the data were processed

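The authors deposited 1 table of read counts per gene for 6 mRNA-seq libraries and 1 MACS2 narrowPeak list for each of 6 ATAC-seq libraries, all on mm10 (GRCm38). The deposited peak columns used here hold the fold enrichment at the summit, a ratio, and −log10 q-values. STAR, DESeq2, Bowtie2 2.3.4.2 and SAMtools are named in the submitters' processing notes. The counting tool, its annotation and its use of strand are not given in the sources used here. The deposited table holds gene symbols only, of which 16096 of 16263 were placed on GENCODE M21.

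The 10 members and the gene lists were chosen with earlier results of these data known. Counts were scaled by TMM, filtered with filterByExpr (minimum count 10) and tested across 14061 genes with edgeR 4.0.16 (quasi-likelihood, Benjamini-Hochberg adjustment, threshold 0.05), using all 3 lines in 1 fit for the single clones. Normalized counts are counts scaled to the mean library, and RPKM values use the summed exon length of all transcripts. Values relative to chromosome 11 have its median log2 fold change subtracted before the test. Peaks sharing at least 1 bp across libraries were merged into regions, and regions were counted as listed or not, with no test. Genes named besides the members were, from each list, up to 4 past 2-fold whose mean reached 50 normalized counts in 1 line, or, where a list had fewer than 2 such genes, its 2 most abundant by mean over the 6 libraries. Others are marked as chosen after their values were seen, or are named for being in 2 lists. Precision was limited by 2 libraries per line, and p-values measure the spread between these libraries.

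Alternatives were other scalings, filters, DESeq2 1.42.0, a 2-fold threshold, a replicate block, each library left out, and other peak thresholds and windows. Libraries of the same replicate number shared no broad deviation from their line means, with correlations of -0.054, 0.0032 and -0.025. Whether they were prepared together is not given in the sources used here. ChIP-seq samples of the series were not analysed here.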

Additional observations from a re-analysis of the deposited data

Results flagged for a closer look

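For 3 genes, 1 member and 2 genes of the Wnt lists, the effect in Mut18 differed from that in Mut43 by the test of that difference in edgeR (quasi-likelihood, adjusted by Benjamini-Hochberg), a comparison in which 46 genes (0.327%) passed in either direction. Fzd2 was 0.43 higher in Mut18 than in Mut43 on the log2 scale (SE 0.096, adjusted p = 0.043), and both libraries of Mut18 (360 and 327 normalized counts) were above both of Mut43 (245 and 264). Wls, the Wnt secretion gene, was 0.45 higher in Mut18 (adjusted p = 0.0425), with log2 fold changes against WT of -0.87 in Mut18 and -1.32 in Mut43. Tbx3, a T-box factor and Wnt target, differed the other way at -0.38 (adjusted p = 0.00694), with 622 and 653 normalized counts in Mut18 and 818 and 844 in those of Mut43.
Of the marker lists, the fibroblast markers Col1a1 (adjusted p = 0.000132 in edgeR) and Vim (adjusted p = 0.000501) and the differentiation marker Nes (adjusted p = 0.0128) also differed between the clones and were lower in Mut43. Col1a1 had 1664 normalized counts in both Mut18 libraries and 1234 and 1268 in Mut43, and Vim had 4237 and 4041 in those of Mut18 and 3394 and 3158 in those of Mut43. The part of such markers in the difference of Fzd2 and Wls was not tested. No member had a mutant library set apart from the other 3 by the criterion used for single outlying samples.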

How the results depend on the processing

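Sp5, Fzd2, Gsk3b and Tcf7 kept their direction and their adjusted p under 0.05, both clones against WT, in all 13 alternatives other than the 2-fold threshold, with log2 fold changes of -2.67 to -2.37, -0.94 to -0.75, -0.34 to -0.27 and 0.37 to 0.44. Axin1 and Tcf7l2 did not. With upper quartile scaling 1 member was called higher, nuclear cofactors called higher were 1, and Gsk3b between the clones was at 0.01. With DESeq2 1 member was called higher, and nuclear cofactors and differentiating markers called higher were 1 each (Axin1 adjusted p = 0.0981, Tcf7l2 0.141). A minimum count of 50 left 0 ligand genes called higher, since fewer genes were tested. With TMM factors computed without chromosome 11, 2 members were called higher in each clone, Tcf7 and Axin1, and Tcf7l1 turned to 0.01.
Between the clones 0 members were called without a filter on low counts (Fzd2 adjusted p = 0.0865), with DESeq2 (0.394) and under the replicate block (0.0554). The replicate block left the other member counts as they were, 2 higher and 4 lower over both clones. Same-numbered libraries shared no broad deviation in the data.
A 2-fold threshold left 0 members higher and 1 lower over both clones, 0 and 1 in Mut18, and 0 and 2 in Mut43. Over the Wnt lists it left 3 genes higher and 8 lower. By list these were 1 ligand higher (Wnt3a) and 2 lower, 1 receptor or secretion gene higher and 3 lower, 1 secreted inhibitor higher and 0 lower, 2 targets higher and 3 lower, and 0 cytoplasmic or nuclear genes in either direction. Lgr5 and Notum, both higher, were each counted in 2 of these lists. The 2-fold threshold left 0 genes repressed by Tcf7l1 higher, 0 ESC markers in either direction, 5 fibroblast markers lower and 0 differentiating markers higher. Relative to the chromosome 11 median, a scale added after seeing the data, 2 listed genes of that chromosome were higher and 4 lower. On that scale 20.2% of all its tested genes were called higher and 24.4% lower.
With each library left out in turn, members called higher ranged from 1 to 2 over both clones and from 1 to 2 in Mut43, and 0 to 1 between the clones. Nuclear cofactors higher ranged from 1 to 3, differentiating markers higher from 0 to 2, secreted inhibitors lower from 1 to 2, cytoplasmic genes lower from 1 to 2 and ESC markers lower from 1 to 2. Log2 fold changes near 0 turned sign. Over both clones Tcf7l1 ranged from -0.12 to 0.10, in Mut18 from -0.17 to 0.05 and in Mut43 from -0.07 to 0.15. Axin2 ranged from -0.01 to 0.29 in Mut18 and from -0.18 to 0.28 in Mut43, and Apc from -0.01 to 0.13 in Mut18. Between the clones Axin1 ranged from -0.03 to 0.01, Apc from -0.10 to 0.05, Gsk3b from -0.05 to 0.04, Axin2 from -0.14 to 0.33 and Tcf7l2 from -0.05 to 0.07. Relative to chromosome 11 Axin2 ranged from -0.35 to -0.20.
At a −log10 q of at least 20, 40.8% of the regions near members had a peak in all libraries and 0 were of mutants alone. With equal list lengths 2 regions were of WT alone, and within 20 kb 1 was of mutants alone. With a library left out, regions of WT alone ranged from 4 to 13 (9 without WT replicate 1 and 13 without WT replicate 2), and those of mutants alone from 3 to 10 (10 without WT replicate 1). For the results named here the cause was not tested unless given.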
